A study of Homo sapiens with 24 samples.

Results

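The comparison is between untreated ELF-153 and untreated UCSD-AML1 cells harvested at 96 h. It holds 6 of the 24 libraries of the series, 3 of each line, chosen by their labels alone. Both are human acute myeloid leukaemia (AML) cell lines. They were kept in RPMI medium with 20% fetal calf serum, penicillin and streptomycin, and all cultures, controls included, received 5 ng/ml of human GM-CSF, a cytokine that supports the growth of myeloid cells. The untreated cells had no decitabine (DAC), the drug given at 100 nM to the other libraries of this harvest. A further 6 untreated libraries, 3 of each line, were made at 144 h and were used here as separate libraries of the same lines. The series' text calls the 3 libraries of a group technical triplicates. The p-values rest only on how libraries vary within the groups of a fit, which also held the DAC libraries, and that variation may be technical. Each line is a single line, so a difference is one between these lines and not between kinds of leukaemia.

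Blood progenitors take up erythroid and megakaryocytic fates under GATA1 and TAL1, with KLF1 acting on the erythroid side. Granulocytic and monocytic fates come under CEBPA and SPI1, and AML cells hold on to fragments of these programmes. MECOM encodes EVI1, a zinc-finger transcription factor of blood stem cells. Rearrangements within the long arm of chromosome 3 can bring MECOM under the control of an enhancer of GATA2, and UCSD-AML1 is known as a line with such a rearrangement. Receptors for cytokines such as GM-CSF signal in these cells through JAK kinases and STAT factors, RAS and MAP kinases, and PI3K and AKT.

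RNA was depleted of ribosomal RNA, made into stranded paired libraries and sequenced on an Illumina HiSeq. The deposited values are reads per transcript divided by a single factor per library, and gene levels here are sums over the transcripts of a gene, called scaled reads. The sources used here do not say how reads shared by several transcripts were assigned. TUBB, the gene of a tubulin that every cell uses, and HLA-C were listed at 0 in all 6 libraries. So a gene listed at 0 is not shown to be silent, levels are not compared between genes, and a difference in a sum may also hold a difference in transcript make-up. The libraries held 19.42 to 23.9 Mreads (mega-reads assigned to transcripts) for UCSD-AML1, whereas the ELF-153 libraries held 13.15 to 17.76. Of these, 49.3% to 51.3% came from mitochondrial ribosomal RNA in UCSD-AML1, against 13.1% to 35.0% of those of ELF-153, so that the share and the line can be told apart only in part. With this share as a covariate 153 of the 184 genes named as called kept their call, and 4 changed sign. Those that lost the call with the same sign included KIT, CDKN1A, ZMAT3, MBD2, PIK3CB, ERAP2, HLA-DRB1, EPOR, EGR1 and VDR. ELF-153 replicate 1, the library with the lowest share, stood apart: its log2 reads correlated with those of the other ELF-153 libraries at 0.91 and 0.939, against 0.968 between those and 0.979 to 0.983 among the UCSD-AML1 libraries.

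The line difference also moved with the GC content of a gene. With protein-coding genes cut by GC content into 5 groups of equal size, the median log2 difference, ELF-153 minus UCSD-AML1, went from −1.19 in the lowest group to 0.55 in the highest. In the 144 h libraries it went from −0.57 to 0.69. The plot of deviation by GC content shows every library on this gradient, with ELF-153 replicate 1 steepest. A fit with each library's GC trend removed was therefore added after the data were seen, and it is named where it ended a call of a gene or moved the count of a gene list by over 1.5 times. It also moved the size of many differences that stayed called: 63 of the 171 named genes that kept their call moved by over 1.5-fold. What part of the trend comes from the lines and what part from the libraries was not tested.

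**Figure D1:**
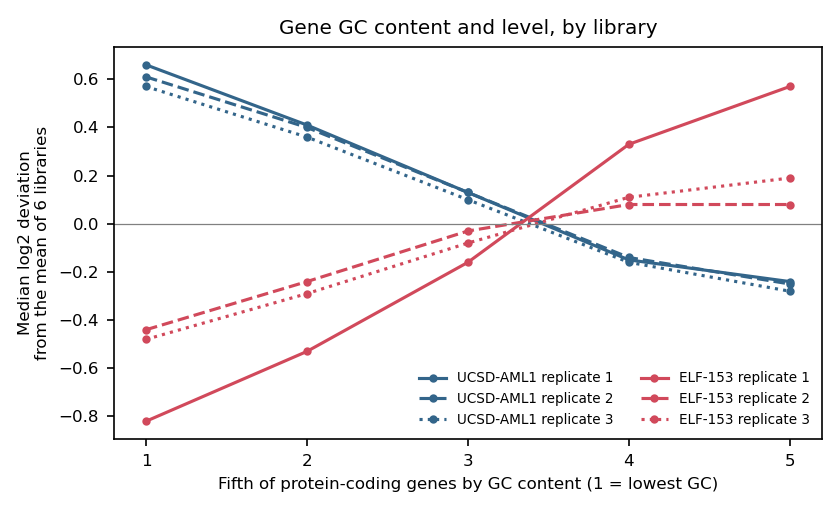
The x axis gives 5 groups of the tested protein-coding genes by GC content, from lowest to highest, and the y axis is the median log2 deviation of a library from the mean of the 6 libraries; each line is a library, blue for UCSD-AML1 and red for ELF-153. The UCSD-AML1 lines go down from 0.57 to 0.66 in the lowest group to −0.28 to −0.24 in the highest, and the ELF-153 lines go up, ELF-153 replicate 1 from −0.82 to 0.57.

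Of 15539 genes with a level of at least 10 in at least 3 of the 6 libraries, 2484 (16.0%) were higher and 4657 (30.0%) were lower in ELF-153. A gene was called when limma's Benjamini-Hochberg adjusted p was under 0.05 and the difference was at least 2-fold. Among the 10602 protein-coding genes the shares were 16.0% higher and 28.6% lower. The median log2 difference over all genes tested was −0.27, and scaling by TMM moved it to 0.04. The split of the calls moved with it, from 34.8% higher in the deposited scaling to 48.7% higher with TMM (3500 higher and 3691 lower) and 49.9% with the GC trend removed (2843 and 2856). Genes that pass the filter through 1 line alone are bound to differ, so the counts of each gene list below are read against 16.0% and 30.0%. List medians were the same to 2 decimals with near-0 genes set at their bound or ratio.

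The 144 h libraries were fitted on their own, and 22.1% of genes were called higher and 19.6% lower there. Of the 2344 genes called higher at 96 h and tested at 144 h, 2072 (88.4%) were called higher again. Of the 4317 called lower, 2654 (61.5%) were called lower again and 4246 had the same sign. A single gene called in each direction at 96 h was called in the opposite direction at 144 h: CHAC1 had log2 differences of 2.64 and −1.04, and EIF4H of −1.45 and 1.13. Both were named after their values were seen. Of the genes named below as called, WT1, BCL11A, VDR, NR4A1, ITGAX, FCER1A, PRF1, HOXA10, MEIS1, PBX4, RASA1, SOCS6, SOCS4, CCND1, BAX and DNMT3B were not called again at 144 h or were not tested there.

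Among protein-coding genes with more than 3 reads in the lower line, the largest differences toward ELF-153 included an adaptor of receptor signalling, a guidance ligand and a docking protein of the insulin pathway. PAG1, a membrane adaptor that recruits the kinase CSK, stood at 4.19, 3.67 and 2.36 in the UCSD-AML1 libraries and at 4383, 4561 and 4499 in the ELF-153 libraries (log2 difference 10.01 ± 0.21, SE, adjusted p = 5.99e-13). EFNB2, the ligand ephrin-B2, stood at 5.24, 0 and 4.73 against 2768, 2049 and 2579. IRS1, which couples the insulin and IGF1 receptors to PI3K, stood at 2.1, 3.67 and 0.788 against 2076, 1415 and 1315. No ELF-153 library overlapped a UCSD-AML1 library in any of these genes. The zinc-finger gene ZNF22 (9.85 ± 0.36), the histone gene HIST3H2A (9.08 ± 0.44), C3orf80 (8.82 ± 0.27), MPV17L (8.51 ± 0.48), UST (7.96 ± 0.20), the Wnt antagonist gene NKD2 (7.86 ± 0.36), AMZ1 (7.76 ± 0.42) and ERV3-1 (7.59 ± 0.33), an endogenous retroviral envelope gene, were also among the 12 largest. MTRNR2L1 (9.21 ± 0.64) is a near-identical copy of the mitochondrial 16S ribosomal RNA gene and is uncertain for that reason, with 6444, 76006 and 49350 scaled reads in ELF-153.

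The largest differences toward UCSD-AML1 held an interferon-stimulated gene, MECOM, cytokine receptors and platelet receptors. IFI44L stood at 7179, 7035 and 6873 against 1.12, 2.05 and 2.73 (−11.25 ± 0.28, adjusted p = 2.8e-12). The replication-dependent histone gene HIST1H4C stood at 20132, 19097 and 18129 against 26.9, 7.17 and 20. BTN1A1, a butyrophilin, stood at 10880, 10724 and 9318 against 13.4, 17.4 and 15.5. Others of the 12 were MECOM, IL7R (−10.30 ± 0.43), LIFR (−9.97 ± 0.52), the sorting receptor gene SORT1 (−9.17 ± 0.18), RHAG (−9.15 ± 0.44), F2RL2 (−8.76 ± 0.35), GP1BA (−8.37 ± 0.34) and the protease gene ADAMTS4 (−8.17 ± 0.37).

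A further 197 protein-coding genes called higher and 250 called lower had at most 3 reads in all libraries of the lower line. For these a bound or a ratio of reads is given in place of a fitted difference; both cover counting error only. ATP8A2, a phospholipid flippase gene, was listed at 0 in UCSD-AML1 and stood at 1890, 2940 and 2388 in ELF-153, at least 2670-fold higher against a floor of 3 reads over the group. The zinc-finger gene ZNF486 and the gene ZBED6CL were also listed at 0 in UCSD-AML1 and were at least 894-fold and at least 830-fold higher. LSAMP, a neuronal adhesion gene, stood at 2739, 2601 and 2759 in UCSD-AML1 and was listed at 0 in ELF-153, at least 2670-fold lower. STAB1, a scavenger receptor gene of macrophages and sinusoidal endothelium, stood at 3925, 3922 and 3854 against 1.12, 0 and 0.911, a ratio of reads of 5780 (95% counting interval 1600 to 47700). CLECL1 was listed at 0 in ELF-153 and was at least 1920-fold lower.

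**Figure D2:**
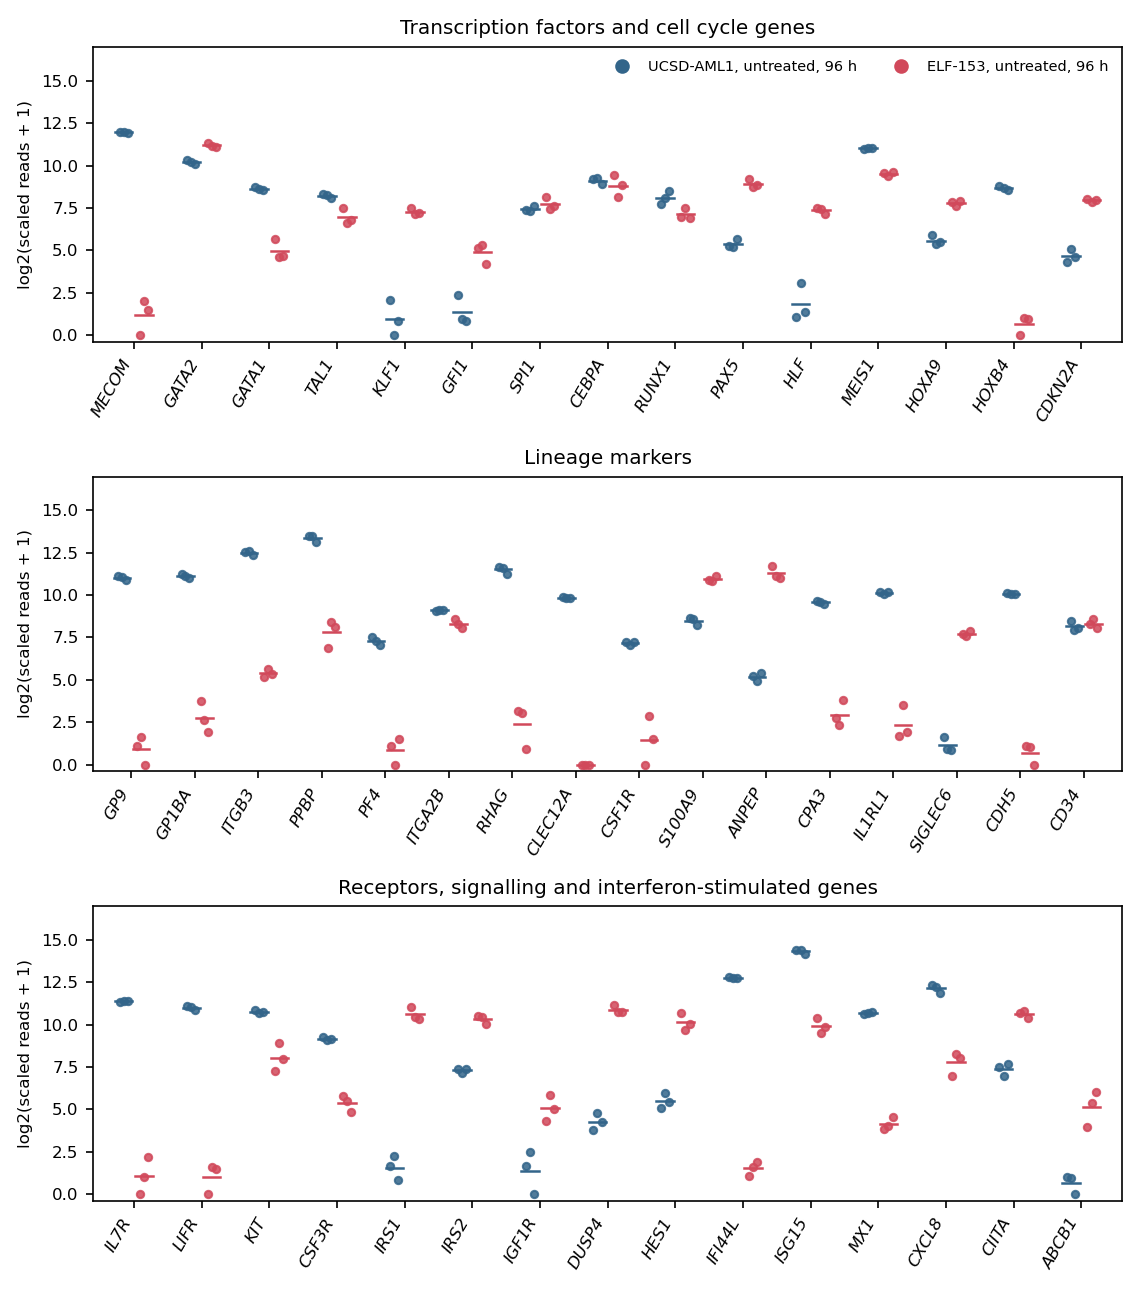
Each point is a library (blue, untreated UCSD-AML1; red, untreated ELF-153, 3 each at 96 h), each bar is the mean of the 3 points, and the y axis is log2(scaled reads + 1). MECOM, the platelet genes and IFI44L separate the lines in 1 direction, IRS1, DUSP4 and ANPEP separate them in the other, and SPI1, CEBPA and CD34 overlap.

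The first question of the comparison is which drivers of AML the lines differ in. MECOM stood at 4086, 3993 and 3927 in UCSD-AML1 and at 0, 3.07 and 1.82 in ELF-153 (−10.79 ± 0.37, adjusted p = 5.21e-11), and at 144 h the log2 difference was −11.49. Of its 18 annotated transcripts in the table, 8 held reads in UCSD-AML1 and 2 in ELF-153. MECOM-206 alone held 93.1% of the MECOM sum of UCSD-AML1, with 3852, 3721 and 3604 scaled reads. The next, MECOM-203, held 1.9%, with 77.6, 68.7 and 81.2. Since reads shared by transcripts may have been left out, these shares are shares of the reads the table assigns.

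GATA2, the stem cell factor whose enhancer such rearrangements involve, did not pass the 2-fold threshold. It stood at 1307, 1172 and 1097 in UCSD-AML1 and at 2614, 2254 and 2208 in ELF-153 (0.98 ± 0.15, adjusted p = 7.39e-05), without overlap. With TMM scaling the difference was 1.29 and was called, and with the GC trend removed it was 0.41 and was not. Of 21 tested neighbours of GATA2 and MECOM on chromosome 3, both genes included, 2 were higher and 9 lower, with a median of −0.74 (3 and 5 with TMM). Beside MECOM the largest lower calls were SKIL (−2.47 ± 0.26), a repressor of TGF-beta signalling, and SEC62 (−2.41 ± 0.43), a translocon gene. The higher ones were TERC (1.74 ± 0.27), the RNA component of telomerase, and EEFSEC (1.51 ± 0.32), the elongation factor gene of selenoproteins. With the GC trend removed SKIL and SEC62 were not called, and the counts were 5 higher and 3 lower with a median of 0.20.

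Of 65 tested leukaemia drivers, 7 (10.8%) were higher and 23 (35.4%) lower in ELF-153, near the shares of all genes. SAMD9L, an interferon-stimulated gene on chromosome 7 that is mutated in inherited predisposition to myeloid disease, stood at 109, 99.9 and 104 against 1.12, 1.02 and 1.82 (−5.52 ± 0.36). MLLT3, a component of the super elongation complex and a frequent fusion partner of KMT2A, stood at 905, 848 and 869 against 20.2, 43 and 41 (−4.69 ± 0.47, −3.47 with the GC trend removed). Toward ELF-153, KMT2D, a histone methyltransferase gene, stood at 1545, 1633 and 1953 against 6327, 11410 and 6039 (2.16 ± 0.33). AFDN (3.18 ± 0.46), another partner of KMT2A, and BCORL1 (1.88 ± 0.53), a corepressor gene, were higher as well.

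The haematopoietic factor RUNX1 stood at 214, 267 and 360 against 125, 183 and 118 (−0.97 ± 0.23, adjusted p = 0.00261) and was just short of 2-fold. The DNA demethylase gene TET2 was lower (−1.49 ± 0.51), but not with the GC trend removed or without ELF-153 replicate 1 (−0.38 and −0.74), and it turned to 1.27 with the mitochondrial share as a covariate. WT1 was higher at 15.7, 16.5 and 22.1 against 29.1, 65.6 and 37.4 (1.17 ± 0.34). That call was lost with the GC trend removed (0.94) and without ELF-153 replicate 2 (0.85). MYC differed by −0.98 ± 0.32 (adjusted p = 0.0174), was not called, and passed the threshold with the GC trend removed and without ELF-153 replicate 1 (−1.35 and −1.18). DNMT3A, the de novo methyltransferase gene often mutated in AML, differed by −0.36 ± 0.23 (adjusted p = 0.19). PRDM16, the closest relative of MECOM, did not pass the filter at 4.48, 3.07 and 5.47 scaled reads in ELF-153 and was listed at 0 in UCSD-AML1, and FLT3 had at most 4.56 in any library.

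Genes of the p53 pathway were more often lower than higher in ELF-153. Of 29 tested cell cycle inhibitors, p53 pathway members and p53 targets, 16 (55.2%) were lower and 1 (3.45%) higher, with a median of −1.17 against −0.27 over all genes. At 144 h 13 were lower and 1 higher. PHLDA3, a p53 target that inhibits AKT, stood at 99.6, 101 and 87.5 against 1.12, 1.02 and 1.82 (−5.40 ± 0.40). TNFRSF10B, a death receptor gene, stood at 78.6, 58.7 and 52 against 1.12, 2.05 and 4.56, and ZMAT3, an RNA-binding target of p53, at 1050, 950 and 959 against 22.4, 140 and 93. CDKN1A, the p21 inhibitor of cyclin-dependent kinases, was low in both lines, at 16.8, 33 and 39.4 against 2.24, 8.19 and 4.56 (−2.40 ± 0.40). The single higher member was CDKN2A, the gene of p16 and ARF, at 18.9, 33 and 22.9 against 260, 228 and 251 (3.29 ± 0.22, adjusted p = 2.93e-08). Its neighbour CDKN2B did not pass the filter, with 2 reads in ELF-153 and none in UCSD-AML1.

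The second question is which blood lineages the lines resemble. Megakaryocyte and platelet genes were mostly lower in ELF-153: of 38 tested members 28 (73.7%) were lower and 3 (7.89%) higher, with a median log2 difference of −2.68. The counts were 26 and 3 with TMM, 27 and 4 with the GC trend removed, and 27 and 3 at 144 h. The subunits of the von Willebrand factor receptor were among the largest. GP9 stood at 2282, 2147 and 1871 against 1.12, 2.05 and 0, a ratio of reads of 2060 (95% counting interval 704 to 9980). GP1BA stood at 2399, 2258 and 2046 against 12.3, 5.12 and 2.73. ITGB3, the beta chain of the platelet fibrinogen receptor, stood at 5920, 6114 and 5401 against 34.7, 49.2 and 40.1 (−7.11 ± 0.17, adjusted p = 1.95e-12).

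The alpha chain that pairs with ITGB3 differed far less. ITGA2B stood at 540, 558 and 546 against 377, 314 and 262 (−0.80 ± 0.18, adjusted p = 0.00177) and was not called, although it was called with the GC trend removed (−1.30). F2RL2, a thrombin receptor gene, differed by −8.76 ± 0.35, and TUBB1, the tubulin of platelets, stood at 2312, 2011 and 1767 against 14.6, 14.3 and 9.11. The alpha-granule chemokine gene PPBP stood at 11504, 11676 and 9110 against 116, 337 and 280 (−5.58 ± 0.33). PF4, its neighbour, was lower by a ratio of reads of 152, and VWF was lower by less (−1.99 ± 0.26). Toward ELF-153 were PDGFA (4.26 ± 0.38), a growth factor stored in platelets, the tetraspanin gene CD9 (21.5 to 47 against at most 1.05) and LAT (3.22 ± 0.24), an adaptor of the collagen receptor.

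Erythroid genes were divided. GATA1, the master factor of erythroid cells and megakaryocytes, stood at 419, 396 and 383 in UCSD-AML1 and at 49.3, 23.6 and 24.6 in ELF-153 (−3.66 ± 0.24, adjusted p = 2.49e-08). KLF1, an activator of globin genes, went the other way, at 3.15, 0 and 0.788 against 177, 142 and 147 (6.32 ± 0.41, adjusted p = 3.58e-08). Of 13 tested erythroid transcription factors and globins, 2 (15.4%) were higher and 4 (30.8%) lower, close to the shares of all genes. With the GC trend removed 1 was higher and 4 lower. LMO2 (−1.63 ± 0.20) and TAL1 (−1.26 ± 0.22), which share a complex with GATA1, were lower, TAL1 not with TMM (−0.95). BCL11A (−1.43 ± 0.39), the repressor of fetal globin, was lower but not without ELF-153 replicate 1 (−0.98) or at 144 h, and turned to 0.40 with the mitochondrial covariate. The globin gene HBQ1 (1.62 ± 0.28) was higher but not with the GC trend removed.

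The markers of maturing red cells were at or near 0 in both lines: ALAS2 was listed at 0 in all 6 libraries and HBG1 had 3.07 to 6.72 scaled reads. Of 21 genes of haem synthesis and the red cell membrane, 4 were higher and 8 lower, against 5 and 5 at 144 h. RHAG, the Rh-associated glycoprotein, stood at 3283, 3092 and 2471 against 7.84, 7.17 and 0.911 (−9.15 ± 0.44), and CA2 (−4.01 ± 0.59), a carbonic anhydrase, and TSPAN33 (−3.22 ± 0.35), a tetraspanin, followed. EPOR, the erythropoietin receptor gene, was higher at a low level, 7.34, 6.42 and 2.36 against 21.3, 15.4 and 20 (1.73 ± 0.39), as were the spectrin gene SPTB (2.10 ± 0.37) and ALAD (1.58 ± 0.31), an enzyme of haem synthesis.

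Granulocytic and monocytic genes did not go 1 way. The 18 tested transcription factors of these lineages held 4 higher and 4 lower, against 2 and 3 at 144 h. SPI1 stood at 166, 161 and 197 against 279, 173 and 192 (0.27 ± 0.21, adjusted p = 0.286) and CEBPA at 580, 603 and 477 against 697, 283 and 465 (−0.29 ± 0.31, adjusted p = 0.432), so that the lines overlapped in both. GFI1, a repressor needed for neutrophils, was higher (3.49 ± 0.49), as were VDR (1.92 ± 0.43), the vitamin D receptor gene, and IRF5 (1.56 ± 0.26). The immediate early genes NR4A1 (−2.17 ± 0.46) and EGR1 (−2.01 ± 0.44) and the inhibitor gene ID1 (−1.83 ± 0.19) were lower.

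Of 20 granule, phagocyte and monocyte effectors tested, 6 were higher and 7 lower. ANPEP, the CD13 peptidase of myeloid cells, stood at 35.7, 29.3 and 41.8 against 3400, 2250 and 2074 (6.12 ± 0.26, adjusted p = 3.71e-10). S100A9, a subunit of calprotectin, stood at 403, 389 and 296 against 1920, 1807 and 2249, and the integrin gene ITGAX (2.47 ± 0.59) and LYZ (1.04 ± 0.30), the lysozyme gene, were higher as well, LYZ not without ELF-153 replicate 2 (0.93), ELF-153 replicate 3 (0.87) or UCSD-AML1 replicate 3 (0.84). In the other direction the lectin gene CLEC12A stood at 962, 921 and 899 in UCSD-AML1 and was listed at 0 in ELF-153, at least 914-fold lower. The lectin gene CLEC7A was at least 103-fold lower and the proteoglycan gene VCAN at least 75.8-fold lower. MPO, ELANE and PRTN3, the genes of the primary granules, and the monocyte gene CD14 were listed at 0 in all 6 libraries.

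Mast cell, basophil and eosinophil genes were lower in 7 and higher in 4 of 13 tested, against 4 and 5 at 144 h. IL1RL1, the IL-33 receptor, stood at 1168, 1069 and 1157 against 2.24, 10.2 and 2.73 (−7.78 ± 0.35). CPA3, the mast cell carboxypeptidase, stood at 806, 786 and 726 against 5.6, 4.1 and 12.8 (−6.64 ± 0.49), and FCER1A, the alpha chain of the IgE receptor, at 23.1, 19.2 and 19.7 against 0, 0 and 0.911 (ratio of reads 60.9). The Siglec genes went toward ELF-153: SIGLEC6 stood at 2.1, 0.917 and 0.788 against 205, 192 and 236 (6.59 ± 0.32), and SIGLEC8 was listed at 0 in UCSD-AML1 and was at least 68.1-fold higher. The eosinophil ribonuclease gene RNASE2 was higher too (4.61 ± 0.71). The tryptase gene TPSB2 and MS4A2, the beta chain of the IgE receptor, were listed at 0 throughout.

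Single lymphoid genes separated the lines although MS4A1 on the B side was listed at 0 and CD3E on the T side had at most 3.67 scaled reads. PAX5, the commitment factor of B cells, stood at 36.7, 35.7 and 48.9 against 589, 433 and 454 (3.57 ± 0.19, adjusted p = 3.06e-09). IGHM, the constant region of IgM, stood at 40.9, 49.5 and 40.2 against 696, 408 and 497, and IGLL1, of the surrogate light chain, was higher at a low level (3.12 ± 0.47). The recombinase genes RAG2 (ratio of reads 420) and RAG1 (−3.15 ± 0.61) were lower in ELF-153, and CD79A was lower (−1.11 ± 0.22) but not with TMM (−0.80) or without ELF-153 replicate 2 (−0.87). On the T side, CD5 stood at 675, 650 and 577 against 3.36, 2.05 and 0 (−8.06 ± 0.43) and CD7 was lower (−2.49 ± 0.51). CD3D, at 6.29, 0 and 0.788 against 132, 138 and 149, the IL-2 receptor chain gene IL2RB (3.06 ± 0.40) and the perforin gene PRF1 (2.92 ± 0.51) were higher.

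Stem and progenitor genes were called lower in 16 (48.5%) and higher in 7 (21.2%) of 33. CD34, the marker of progenitors, did not separate the lines, at 359, 241 and 263 against 319, 378 and 262 (0.16 ± 0.21, adjusted p = 0.53). THY1, the CD90 antigen of stem cells, stood at 228, 193 and 205 against 1.12, 0 and 0 (ratio of reads 616). HLF, a factor of long-term stem cells, stood at 1.05, 7.33 and 1.58 against 177, 175 and 143 (5.55 ± 0.48). SPINK2, a protease inhibitor gene, was listed at 0 in UCSD-AML1 and stood at 164, 114 and 107 in ELF-153, at least 139-fold higher, and HOPX was higher (5.21 ± 0.58). ERG (0.40 ± 0.30) and BAALC (−0.90 ± 0.29) were not called.

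Of 10 HOX genes tested 5 were higher and 4 lower, and all but 1 of the called genes divided by cluster, a pattern named after the values were seen. HOXB2, HOXB3 and HOXB4 of the B cluster were lower in ELF-153. HOXB4, a self-renewal factor of stem cells, stood at 437, 409 and 378 against 0, 1.02 and 0.911 (ratio of reads 601, 95% counting interval 166 to 4970), and HOXB3 was at least 45.4-fold lower. Of the A cluster, HOXA9, a driver in many leukaemias, stood at 57.7, 40.3 and 43.4 against 231, 191 and 239 (2.21 ± 0.26, adjusted p = 8.99e-06). HOXA5 (3.23 ± 0.19), HOXA6 (3.19 ± 0.31) and HOXA2 (2.26 ± 0.55) were higher too, whereas HOXA11 went the other way, at 30.4, 36.7 and 49.7 against 0, 0 and 0 (at least 39.4-fold lower). HOXA10 was higher by 1.01 ± 0.21, a call lost with the GC trend removed and without ELF-153 replicate 1. Of the HOX partners, MEIS1 stood at 2015, 2125 and 2140 against 747, 679 and 786 (−1.51 ± 0.16, −0.69 and not called with the GC trend removed), TGIF1 and PBX4 were higher, and PBX3 was not called (0.92 ± 0.20).

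Genes of other cell types were checked as markers. Of 17 endothelial genes matched, 12 were tested, and 10 of these (83.3%) were lower in ELF-153 and none higher. CDH5 and TEK passed the filter through UCSD-AML1 alone, so they were bound to differ. Endothelial KDR, FLT1 and SOX17 did not pass it, with at most 4.19 scaled reads in any library. CDH5, the cadherin of endothelial junctions, stood at 1104, 1087 and 1058 against 1.12, 1.02 and 0 (ratio of reads 1600), TEK was listed at 0 in ELF-153 and was at least 141-fold lower, and MMRN2 differed by −7.20 ± 0.24. Endothelial CLDN5, epithelial EPCAM and KRT19 and stromal DCN and LUM were listed at 0 in all 6 libraries, and COL1A1 and COL1A2 had at most 3.15 scaled reads. Other epithelial markers did hold reads in both lines. KRT8 stood at 71.3, 65.1 and 54.4 against 50.4, 21.5 and 18.2, and KRT18 at 145, 160 and 147 against 85.1, 52.2 and 79.3. Of 7 fibroblast and stromal genes tested, 1 was higher and 2 were lower. The summed level of the 17 endothelial genes matched was 6123 to 6587 in UCSD-AML1, against 1273 to 1734 for ELF-153, and its part in other results was not tested. As these are bulk samples, fewer cells that express a gene and less RNA per cell cannot be told apart.

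**Figure D3:**
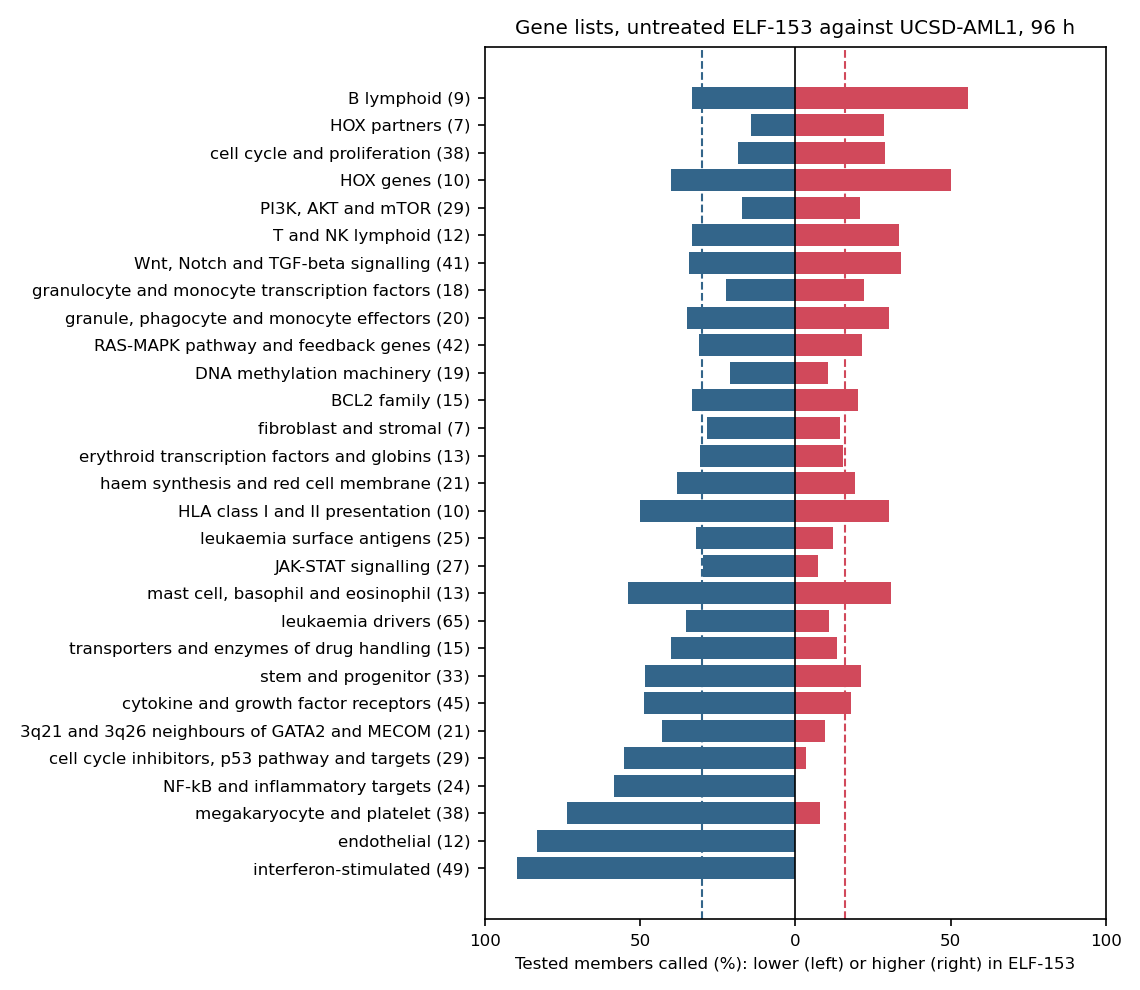
For each gene list with at least 7 tested members (number in brackets), the bars give the share of tested members called lower (blue, left) and higher (red, right) in ELF-153, and the dashed lines give the shares over all genes, 30.0% and 16.0%. The interferon-stimulated, endothelial, megakaryocyte and NF-kB lists reach furthest to the left, 89.8%, 83.3%, 73.7% and 58.3%.

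The third question is how the lines differ in signalling. Of 45 tested cytokine and growth factor receptors, 22 (48.9%) were lower and 8 (17.8%) higher in ELF-153. IL7R, the receptor of interleukin-7, stood at 2636, 2664 and 2680 against 0, 1.02 and 3.65 (−10.30 ± 0.43, adjusted p = 4.9e-10). LIFR, the receptor of leukaemia inhibitory factor, stood at 2242, 2092 and 1852 against 0, 2.05 and 1.82. KIT, the stem cell factor receptor, stood at 1853, 1647 and 1756 against 150, 474 and 250 (−2.74 ± 0.48, adjusted p = 0.000321). With the GC trend removed the KIT difference was −1.86. With the mitochondrial rRNA share as a covariate the KIT difference was −0.95 and was not called.

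CSF3R, the receptor of G-CSF, was lower at 608, 544 and 564 against 53.8, 44 and 28.2 (−3.78 ± 0.39), and CSF1R, of M-CSF, at 151, 130 and 151 against 0, 6.15 and 1.82 (−5.73 ± 0.55). The receptor for the GM-CSF in the medium could be read on its beta chain only: CSF2RB stood at 11.5, 15.6 and 17.3 against 22.4, 5.12 and 14.6 (−0.26 ± 0.42, adjusted p = 0.616). CSF2RA had 1 read in all and IL3RA was listed at 0; both lie in a region shared by the sex chromosomes, where a read has more than 1 place to map. Toward ELF-153 were IGF1R (3.69 ± 0.58), the insulin-like growth factor receptor, IL2RB and IL2RA. IL2RA, the CD25 chain, stood at 115, 88.9 and 132 against 515, 623 and 632 (2.40 ± 0.19, adjusted p = 1.68e-07).

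Insulin receptor substrates were among the higher genes of the PI3K, AKT and mTOR list, where 6 of 29 tested genes were higher and 5 lower. With the GC trend removed 7 were higher and 2 lower. Beside IRS1, IRS2 stood at 165, 140 and 168 against 1453, 1428 and 1049 (3.04 ± 0.22, adjusted p = 6.16e-08). FOXO1, a transcription factor that AKT inhibits, stood at 360, 313 and 333 against 16.8, 13.3 and 10 (−4.57 ± 0.23, adjusted p = 1.93e-09). The catalytic subunit genes PIK3CB (−2.78 ± 0.38, −1.50 with the GC trend removed) and PIK3CA (−2.48 ± 0.58) were lower, PIK3CA not with the GC trend removed (−0.82), and it turned to 0.26 with the mitochondrial covariate.

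In the RAS and MAP kinase list 9 of 42 tested genes were higher and 13 lower. DUSP4, a phosphatase induced by ERK that switches MAP kinases off, stood at 12.6, 26.6 and 18.1 against 2316, 1712 and 1726 (6.62 ± 0.24, adjusted p = 7.01e-11). ETV4, another gene downstream of ERK, was higher at a low level (2.86 ± 0.64), and RASAL1, a RAS GTPase activator, was at least 24.9-fold higher. EGR3, an immediate early gene, stood at 111, 104 and 85.9 against 0, 2.05 and 0.911, and RASA1, also a RAS GTPase activator, at 37.7, 31.2 and 27.6 against 1.12, 0 and 0. RASGRP3, an exchange factor of RAS, was lower (−3.87 ± 0.24).

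Wnt, Notch and TGF-beta genes went both ways, 14 higher and 14 lower of 41 tested. The even split depended on the fit: 9 were higher and 13 lower with the GC trend removed, and 8 and 14 with the mitochondrial covariate. HES1, a target of Notch, stood at 33.6, 60.5 and 41.8 against 1639, 826 and 1074 (4.66 ± 0.29, adjusted p = 1.33e-08). The Wnt receptor genes FZD1 and FZD4 went opposite ways: FZD1 stood at 27.3, 29.3 and 14.2 against 615, 486 and 437 (4.43 ± 0.29), and FZD4 at 527, 551 and 534 against 1.12, 2.05 and 0.911 (−7.86 ± 0.32). The coreceptor gene LRP6 was higher (4.15 ± 0.49). ID3, a target of BMP signals, stood at 238, 196 and 179 against 2.24, 2.05 and 0.911 (−6.26 ± 0.31), and INHBA, an activin subunit, was lower by a ratio of reads of 266.

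Interferon-stimulated genes held the largest share of lower members among the lists with at least 7 tested. Of 49 tested members 44 (89.8%) were lower in ELF-153 and none was higher, with a median log2 difference of −3.67. The counts were 40 with TMM, 44 with the GC trend removed (median −2.80), 44 without ELF-153 replicate 1, 42 with the mitochondrial share as a covariate and 45 at 144 h (median −3.75), with none higher in any of these. Summed over the 52 genes matched, the list reached 99784 to 111929 scaled reads per UCSD-AML1 library but 15391 to 17272 per ELF-153 library. The antiviral genes of this list are switched on when type I interferon activates STAT and IRF factors, which bind an element known as the ISRE.

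MX1, a GTPase that traps viral particles, stood at 1587, 1661 and 1730 against 13.4, 15.4 and 22.8 (−6.54 ± 0.19, adjusted p = 1.07e-11). EPSTI1 stood at 130, 126 and 165 against 0, 1.02 and 0, a ratio of reads of 421. IFIT1, which binds foreign RNA, stood at 976, 961 and 803 against 2.24, 23.6 and 19.1, and ISG15, a ubiquitin-like modifier, at 22153, 21841 and 18282 against 1371, 732 and 950 (−4.39 ± 0.23). IFIT1 and ISG15 were named after their values were seen.

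The promoters of these genes are shown to describe a sequence that many of them hold. Genes of this list are known as targets of factors that bind the ISRE, so a high share follows from the choice of list. It is no separate support for the line difference. The core of the ISRE, written as GAAA, any 2 bases and GAAA again, was searched on both strands, overlaps allowed, in the 250 bases before each RefSeq start (build GRCh38.p14). It was found in 3.02% of 35116 promoters and in 1014 of 27305 genes (3.71%). Of the 37 interferon-stimulated genes with a promoter entry, 26 (70.3%) held it, 24 of the 35 called lower and both of the others. The share was 2.94% of 34 megakaryocyte and platelet genes and 10.7% of 28 NF-kB targets. A match describes letters in this window and shows no binding.

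The promoters of IFI44L, EPSTI1 and MX1, the members with the largest lower differences, and of IFIT1 and ISG15 are printed 5′ to 3′ on the strand of the gene, with the motif in capitals (as TTTC, 2 bases and TTTC where it lies on the other strand):
IFI44L, chr1:78620198-78620447, plus strand: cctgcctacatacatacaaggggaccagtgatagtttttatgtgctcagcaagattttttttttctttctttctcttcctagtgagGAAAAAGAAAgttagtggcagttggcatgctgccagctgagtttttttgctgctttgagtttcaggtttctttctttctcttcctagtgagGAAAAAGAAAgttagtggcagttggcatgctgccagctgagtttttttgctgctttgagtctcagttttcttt
EPSTI1, chr13:42992242-42992491, minus strand: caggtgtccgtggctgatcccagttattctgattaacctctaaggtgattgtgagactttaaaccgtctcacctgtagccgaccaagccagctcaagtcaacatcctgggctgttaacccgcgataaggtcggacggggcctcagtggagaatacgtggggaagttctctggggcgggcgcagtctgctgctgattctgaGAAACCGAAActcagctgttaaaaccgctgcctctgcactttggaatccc
MX1, chr21:41431800-41432049, plus strand: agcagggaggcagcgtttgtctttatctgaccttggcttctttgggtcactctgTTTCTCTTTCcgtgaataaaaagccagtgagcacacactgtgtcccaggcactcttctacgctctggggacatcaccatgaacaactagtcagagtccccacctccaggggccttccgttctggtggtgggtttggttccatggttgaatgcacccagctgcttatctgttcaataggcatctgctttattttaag
IFIT1, chr10:89392373-89392622, plus strand: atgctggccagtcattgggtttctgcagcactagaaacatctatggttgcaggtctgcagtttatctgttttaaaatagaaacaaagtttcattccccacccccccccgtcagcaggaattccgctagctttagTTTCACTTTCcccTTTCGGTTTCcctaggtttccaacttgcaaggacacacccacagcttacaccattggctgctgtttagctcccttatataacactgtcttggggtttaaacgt
ISG15, chr1:1013247-1013496, plus strand: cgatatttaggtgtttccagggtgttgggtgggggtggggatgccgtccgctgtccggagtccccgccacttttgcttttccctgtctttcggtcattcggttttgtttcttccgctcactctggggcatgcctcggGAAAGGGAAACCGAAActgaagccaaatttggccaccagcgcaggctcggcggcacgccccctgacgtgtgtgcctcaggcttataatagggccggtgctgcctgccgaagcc

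IFI44L, IFIT1 and ISG15 hold 2 matches each, which overlap in ISG15, and EPSTI1 and MX1 hold 1. In EPSTI1 the match ends 40 bases before the start. MX1 has 3 starts in the table, and the one shown holds a match. For comparison, the GATA motif AGATAA was found in the same windows of 11.1% of all genes, 8.82% of the megakaryocyte and platelet genes, 16.2% of the interferon-stimulated genes and 14.3% of the NF-kB genes.

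NF-kB and inflammatory genes were also lower: 14 of 24 tested (58.3%) and none higher, with a median of −1.37. PTGS2, the inducible cyclooxygenase, stood at 202, 181 and 169 against 3.36, 1.02 and 0 (−6.48 ± 0.55). CXCL8, the chemokine IL-8, stood at 5178, 4829 and 3799 against 123, 314 and 266 (−4.38 ± 0.42, adjusted p = 2.11e-06, −2.67 with the GC trend removed), and CXCL1 at 1256, 1236 and 951 against 62.7, 73.8 and 69.3. The count was 12 with TMM, 15 with the GC trend removed and 16 at 144 h.

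In the JAK and STAT list 2 of 27 (7.41%) were higher and 8 (29.6%) lower. The counts were 5 and 4 with TMM, 2 and 4 with the GC trend removed and 5 and 3 at 144 h. Lower genes included SOCS6 (−1.92 ± 0.34) and SOCS4 (−1.63 ± 0.29), feedback inhibitors, of which neither was called with the GC trend removed (SOCS4 then 0.12). OSM, the cytokine oncostatin M, was higher at 141, 162 and 117 against 893, 540 and 616 (2.26 ± 0.27), and CISH, a target of STAT5, was higher (1.07 ± 0.25), though not with the GC trend removed or without ELF-153 replicate 1.

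**Figure D4:**
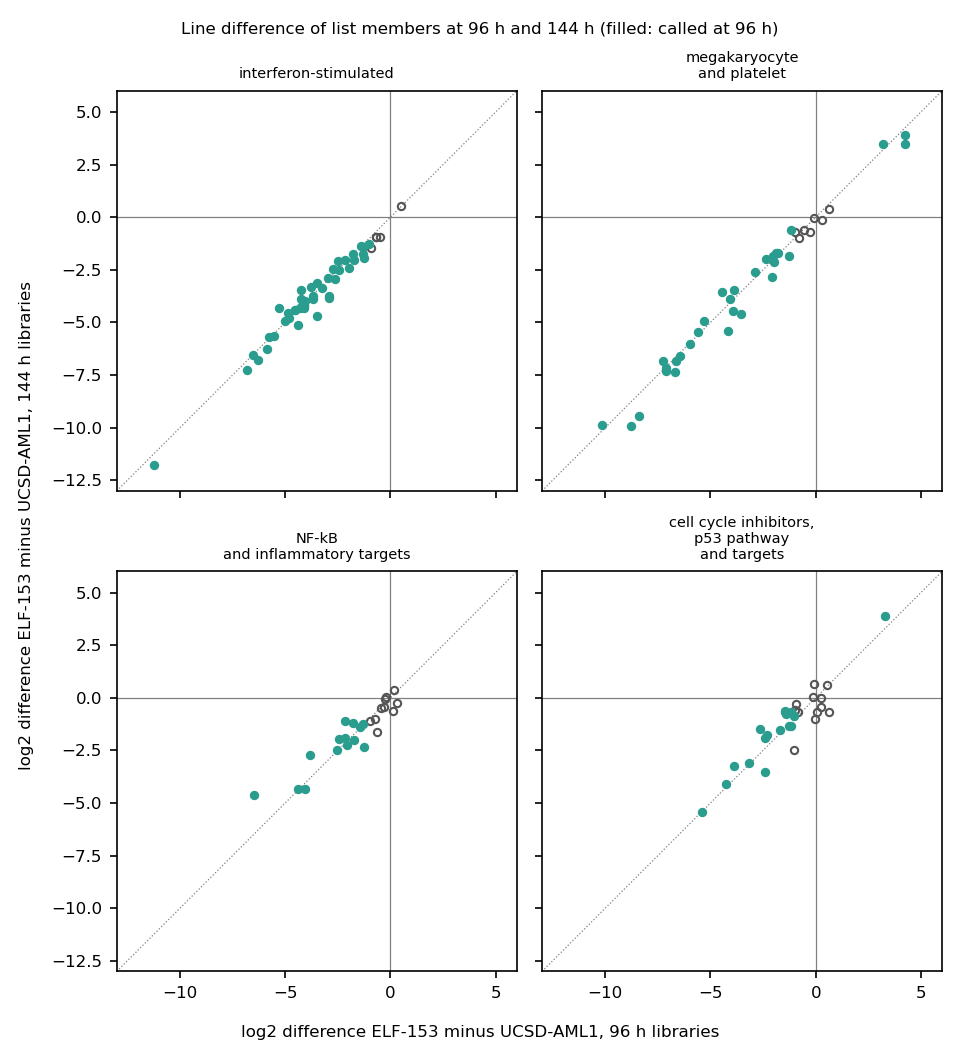
Each point is a tested member of 1 of 4 lists, with the log2 difference between the lines at 96 h on the x axis and in the separate 144 h libraries on the y axis; filled points were called at 96 h, open ones were not, and the dotted line marks equal values. Interferon-stimulated genes lie along the line from IFI44L (−11.25 and −11.75) upward, and CDKN2A (3.29 and 3.89) stands alone on the upper right of the p53 panel.

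Of 10 tested genes of HLA class I and II presentation 3 were higher and 5 lower, and 3 and 4 with the GC trend removed. CIITA, the activator of HLA class II genes, stood at 181, 127 and 208 against 1633, 1778 and 1359 (3.22 ± 0.29, adjusted p = 5.98e-07). HLA-DRB1 (3.22 ± 0.41) and HLA-DRB5 (ratio of reads 1080) were higher, but these paralogs share sequence and are highly polymorphic, so their counts are uncertain. The invariant chain CD74 stood at 455, 460 and 451 against 556, 833 and 815 (0.66 ± 0.19) and was not called, and HLA-DRA had 3 reads in ELF-153 and none in UCSD-AML1. Another class II gene, HLA-DQB1, did not pass the filter and had its reads in UCSD-AML1, at 14.7, 9.17 and 11 against 0, 0 and 0. On the class I side the transporter gene TAP2 was listed at 0 in ELF-153 and was at least 17.6-fold lower. The peptide trimming genes ERAP1 (1865, 1781 and 1637 against 202, 268 and 243) and ERAP2 (−2.97 ± 0.40) were lower, at −1.91 and −1.90 with the GC trend removed.

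Of 38 tested genes of the cell cycle, 11 (28.9%) were higher and 7 (18.4%) lower. The counts were 12 and 4 with the GC trend removed. MKI67, the Ki-67 antigen, stood at 196, 221 and 229 against 541, 1571 and 878 (2.07 ± 0.31), and the replication genes E2F2 (1.77 ± 0.17) and CDT1 (1.75 ± 0.20) were higher. TOP2A, the topoisomerase of dividing cells, stood at 21199, 19918 and 19540 against 1989, 4720 and 3844 (−2.61 ± 0.37, −1.21 with the GC trend removed), and CCNB1 (−2.12 ± 0.59) and CCND1 (−1.97 ± 0.16) were lower. At 144 h 18 were higher and 3 lower.

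In the BCL2 family 3 of 15 were higher and 5 lower, against 4 and 3 with TMM. BCL2 (−0.12 ± 0.25, above 0 with TMM and with the GC trend removed) and BCL2L1 (0.39 ± 0.19) were not called, and MCL1 was lower at 5445, 4572 and 4587 against 1432, 1447 and 1464 (−1.74 ± 0.20, adjusted p = 5.95e-06). BOK, a pro-apoptotic member, stood at 296, 227 and 283 and was listed at 0 in ELF-153, at least 265-fold lower. BAX was lower (−1.40 ± 0.20), and the BH3-only genes BMF (2.67 ± 0.55), BCL2L11 (1.81 ± 0.20) and BAD (1.46 ± 0.27) were higher, BAD not with the GC trend removed. Of 19 genes of DNA methylation, 2 were higher and 4 lower, against 4 and 4 with TMM, 1 and 3 with the GC trend removed and 6 and 4 at 144 h. DNMT3B stood at 62.9, 47.7 and 54.4 against 192, 75.8 and 128 (1.16 ± 0.42), a call lost with the GC trend removed and without ELF-153 replicate 1, and −0.27 with the mitochondrial covariate. The methyl-CpG readers ZBTB33 (−3.20 ± 0.58, −1.81 with the GC trend removed) and MBD2 (−2.13 ± 0.49) and the glycosylase gene TDG (−2.50 ± 0.36) were lower.

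Of 15 tested genes that handle drugs, 2 were higher and 6 lower, and 4 and 4 with the GC trend removed. ALDH1A1, an aldehyde dehydrogenase of stem cells, stood at 4217, 4081 and 3614 against 25.8, 34.8 and 57.4 (−6.69 ± 0.24, adjusted p = 7.07e-11). The exporter gene ABCC3 was lower by a ratio of reads of 218 and the conjugating enzyme gene GSTM1 by at least 43-fold. ABCB1, the P-glycoprotein pump, stood at 1.05, 0.917 and 0 against 14.6, 40 and 63.8 (ratio of reads 68.1), and GSTP1 was higher (2.35 ± 0.26). Of 25 tested leukaemia surface antigens 3 were higher and 8 lower, against 6 and 5 with the mitochondrial covariate. ADGRE2 (3.13 ± 0.27) was higher and CD70 (−5.72 ± 0.32) and CD276 (at least 24.2-fold) were lower, whereas CD33 stood at 303, 330 and 284 against 410, 591 and 519 (0.71 ± 0.17) and was not called. Of 37 cancer-testis antigens only ACTL8 passed the filter, at 5.24, 24.7 and 11 against 616, 298 and 390 (5.06 ± 0.55).

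The line difference was not even along the chromosomes. The median over 10589 protein-coding genes was −0.21, and 0.05 with the GC trend removed. Chromosome 7 lay highest, with a median of 0.59 (0.80 with the GC trend removed) and 36.7% of 452 genes higher, and chromosome 5 lowest, with −1.34 (−0.78) and 57.4% of 481 genes lower. At 144 h the medians were 0.96 and −0.89. With TMM they were 0.90 and −1.04, and with a filter of 50 scaled reads 0.66 and −1.50. Chromosome 17 stood at −0.47 (−0.57), while chromosomes 16 and 19, at 0.55 and 0.53, came to 0.34 and 0.27 with the GC trend removed.

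Blocks of 20 genes in chromosome order placed the differences, with the GC trend removed. Over 520 blocks the median was 0.05 with quartiles of −0.24 and 0.30, and 45 blocks lay at or below −0.7 and 33 at or above 0.7. The stretches named here were marked out after the block values were seen, so their values are a description. On chromosome 7 the 8 blocks from PDGFA to ZNF273 had a median of 0.08, and the 14 blocks from ZNF117 to WDR60 had 1.13, each block between 0.74 and 1.35. In that second stretch 251 of 292 genes lay above 0. On chromosome 5 the 160 genes from PLEKHG4B to JMY had a median of 0.06, and the 321 genes from HOMER1 to TRIM52 had −1.02, with 261 below 0.

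Chromosome 17 changed level several times. The 140 genes from C17orf97 to TVP23C had a median of −1.02, and 124 lay below 0. The next 80, from TRIM16 to TAOK1, had 0.42, the 220 from RHOT1 to NACA2, with the HOXB cluster and ITGB3, had −1.02, and the 162 from PRR29 to METRNL had 0.30. On chromosome 12 the 120 genes from PARP11 to ERGIC2 had −1.02 and the 445 from IPO8 onward −0.05. The same stretches in the 144 h libraries, GC trend removed, had medians of 1.17 on chromosome 7, −0.91 on chromosome 5, −0.94 and −0.97 on chromosome 17 and −1.04 on chromosome 12. Copy number was not measured in this series.

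**Figure D5:**
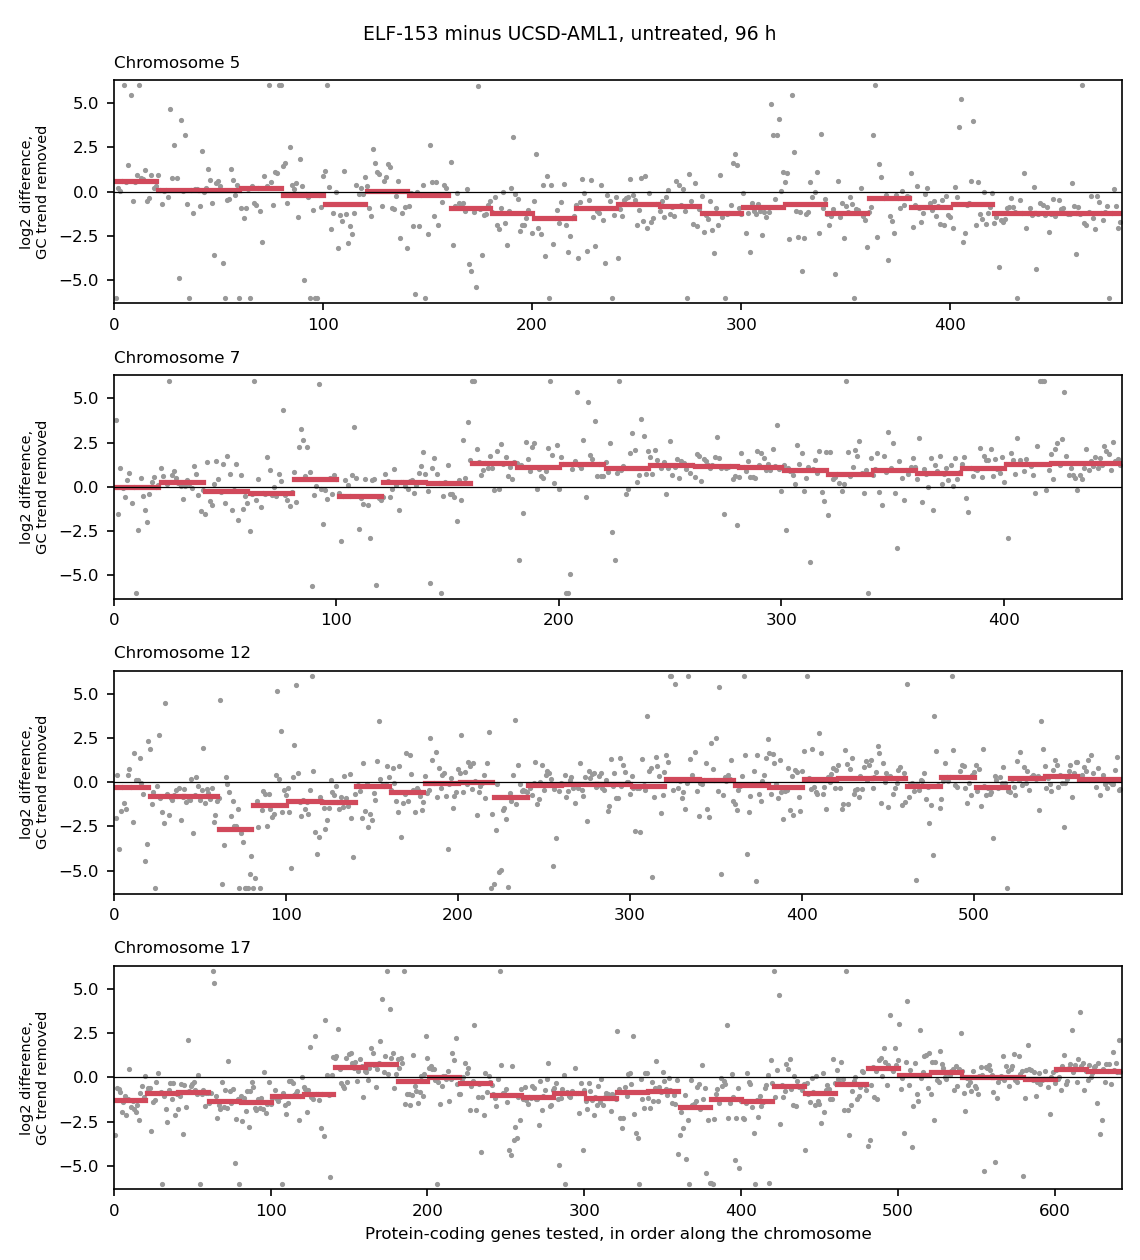
Each grey point is a protein-coding gene at its rank along chromosome 5, 7, 12 or 17, the y axis is the log2 difference ELF-153 minus UCSD-AML1 at 96 h with the GC trend removed (points beyond 6 are drawn at the edge), and red bars are medians of blocks of 20 genes. The bars step to about −1 from HOMER1 onward on chromosome 5, up to about 1 on chromosome 7, and down at the start and in the middle of chromosome 17.

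The lowest and the highest of these blocks lie on chromosomes 12 and 19. The block from PEX5 to CLEC12B on chromosome 12 had a median of −2.67 (−3.48 at 144 h), with 16 of 20 genes lower and 7 with at most 3 reads in ELF-153. It holds C-type lectin genes. CLEC2A stood at 1416, 1303 and 1244 against 1.12, 1.02 and 0, KLRF2 at 1422, 1105 and 1097 against 1.12, 0 and 0, and CD69, an early activation antigen, at 7259, 6900 and 5877 against 195, 464 and 334. The block from ZNF101 to ZNF100 on chromosome 19 had a median of 3.88 (3.69 at 144 h), and 9 of its 20 genes, zinc-finger genes among them, had at most 3 reads in UCSD-AML1 and none so few in ELF-153. ZNF93, a repressor of mobile elements, stood at 0, 0.917 and 0 against 557, 1206 and 942, and ZNF90 was listed at 0 in UCSD-AML1 and was at least 156-fold higher. Genes with at most 3 reads in 1 line passed the filter through the other line alone. Their direction was therefore fixed by the filter, and they weigh on both block medians. These blocks and the genes named from them were chosen after their values were seen.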

How the data were processed

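RNA-seq of 6 untreated libraries at 96 h, 3 of UCSD-AML1 and 3 of ELF-153, was compared. Per the submitters' processing notes the build was hg19 and the tools included STAR, TopHat2, HTSeq, FastQC and DESeq2, with no order or version. The deposited table gives a signal per transcript, reads that the authors divided by 1 factor per library, as the whole-number steps of its values show. Transcripts were matched to genes by GENCODE release 29 (181859 of 204940, 88.7%) and summed, and unmatched ones were left out. All 12 libraries of the 96 h table were fitted as 4 group means with limma 3.58.1 (R 4.3.3, trend and robust) on log2(sum + 1), so fold changes of low genes are understated, testing genes whose level reached 10 in 3 of the 6 libraries. Genes were called at a Benjamini-Hochberg adjusted p under 0.05 and at least 2-fold. The 144 h table was fitted alone. The fit was tested on simulated data with the same spread in all libraries and no GC trend between the lines. That test does not cover the GC trend or the uneven ELF-153 libraries.

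The members and the 31 gene lists were chosen with earlier results of these data known. Named genes were a set of lineage and driver genes, the 12 largest differences each way, 6 near-0 genes each way and the 3 largest called members of each list each way; exceptions are marked, and genes of the Y chromosome were not named. Some genes that this rule names are not reported here. Floors are 3 reads over a group and ratio intervals are 95% counting intervals. Alternatives were edgeR 4.0.16 and DESeq2 1.42.0 on the recovered reads, TMM scaling, other pseudocounts, filters and fold thresholds, only the 6 libraries, a replicate block, the mitochondrial rRNA share as a covariate, protein-coding transcripts, each replicate left out and, chosen after seeing the data, removal of each library's GC trend (lowess, span 0.3). Promoters are RefSeq windows of GRCh38.p14.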

Additional observations from a re-analysis of the deposited data

Results flagged for a closer look

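For CHAC1, a glutathione-degrading enzyme gene of the stress response, the line difference was 2.64 at 96 h and −1.04 at 144 h on the log2 scale, and for EIF4H, a translation factor gene, it was −1.45 and 1.13. In each gene the lines kept apart in both harvests but in opposite order, with a call in each. The difference between the harvests was not tested.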

How the results depend on the processing

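Of 184 genes named as called, 182 were called with TMM, 171 with the GC trend removed, 153 with the mitochondrial covariate and 179 without ELF-153 replicate 1. The count of higher genes, 2484, came to 1445 with a filter of 50, 1456 over protein-coding transcripts only and 1089 at 4-fold. The count of lower genes, 4657, came to 3011 with the mitochondrial covariate, 2529 over protein-coding transcripts only, 2856 with the GC trend removed and 2236 at 4-fold. At 4-fold 8 genes of the p53 list and 9 of the NF-kB list were lower. With no fold threshold 3678 genes were higher and 5821 lower. Leaving out each library gave 2292 to 2622 higher and 4247 to 4841 lower. The cause was not tested, apart from the stricter filter and fold, which pass fewer genes.

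Signs turned for some genes. CEBPA came to 0.13 (edgeR, TMM), 0.09 (edgeR, RLE, and DESeq2) and 0.02 (limma, TMM), and between −0.60 and 0.05 with a library left out. CSF2RB came to 0.21, 0.18 and 0.03 in the same order, and −0.68 to 0.29. BCL2 came to 0.20, 0.17 and 0.19, to 0.47 with the mitochondrial covariate and 0.48 with the GC trend removed, and −0.27 to 0.02. The mitochondrial covariate turned SPI1 to −0.49, TET2 to 1.27, BCL11A to 0.40, BAALC to 0.01, PIK3CA to 0.26 and DNMT3B to −0.27. Removing the GC trend turned SPI1 to −0.35 and SOCS4 to 0.12. Over protein-coding transcripts ERG came to −1.42.

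Without a single other library, calls were lost for TET2 (UCSD-AML1 replicates 1 and 2), HOXA10 (replicates 1 and 3), DNMT3B (replicates 2 and 3, and ELF-153 replicate 3) and CISH (UCSD-AML1 replicate 3), beside those given above in the results. With a replicate block 2463 genes were higher and 4644 lower, and of the genes named TET2 alone lost its call. Same-numbered libraries of the lines did not deviate together (correlations −0.05, −0.04 and −0.03), so the numbers were not taken as pairs. ELF-153 had fewer reads in all than UCSD-AML1, but also a smaller share of mitochondrial ribosomal RNA. A single read stood for 0.911 to 1.12 scaled reads in ELF-153 and for 0.788 to 1.049 in UCSD-AML1. Read number therefore limits what a gene listed at 0 shows in either line.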
